A study of Saccharomyces cerevisiae with 8 samples.

Results

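The transcripts described here are the open reading frame transcripts (ORF-Ts) that lie directly downstream of a small nuclear or small nucleolar RNA (sn/snoRNA) of budding yeast and are read from the same strand. For each sn/snoRNA in the deposited annotation, the nearest ORF-T lying wholly past its 3' end was taken and was kept when both were on 1 strand, at any distance. Of 80 sn/snoRNAs, 51 had such a tandem neighbour and 29 did not, and the 51 pointed to 45 distinct ORF-Ts of 5753 in all. Strand-specific RNA-Seq of rRNA-depleted total RNA was compared between 4 biological replicates of a strain lacking RRP6 (rrp6Δ) and 4 of the wild-type strain (WT). Both strains are isogenic to BY4741, a MATa laboratory strain with deletions at HIS3, LEU2, MET15 and URA3, and were grown in YPD medium to an OD600 of 0.8. The deletion comes from the yeast knockout collection, and it removes the gene in all cells at all times, so that early and late effects cannot be told apart. In bulk RNA, fewer cells with a transcript and less transcript per cell cannot be told apart either.

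Most yeast sn/snoRNAs are made by RNA polymerase II and end through the Nrd1-Nab3-Sen1 (NNS) pathway. Nrd1 and Nab3 bind short motifs in the nascent RNA past the mature 3' end, the helicase Sen1 releases the polymerase, and the nuclear exosome with its exonuclease subunit Rrp6 trims the precursor back to the mature RNA. A polymerase that runs on past such an end moves into whatever lies downstream. When the next gene points the same way, an extended RNA can run into its sense strand, and its reads are then counted on that gene. When the next gene points the opposite way (convergent), the extension is antisense to it. The study drew an extended transcript (ET) by hand behind 78 sn/snoRNAs from these libraries. For a tandem neighbour its methods end the ET at the start of the downstream annotation, so an ET end here is a drawn boundary and not a measured point where reads stop. The deposited coordinates do not always follow that rule. Of the 45 tandem ORF-Ts, 16 overlapped an ET of their own strand, and some ETs, such as that of snR48, end well before the ORF-T. The study took Nrd1-unterminated transcripts (NUTs), mapped in cells depleted of Nrd1, from an earlier annotation.

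The gap between the sn/snoRNA and the tandem ORF-T ranged from 2 to 3407 bases, with a median of 309 bases and quartiles of 195 and 846 bases. It was over 1000 bases for 11 of the 45. For 11 an ORF-T of the opposite strand lay over the gap. Of the 45, 7 followed an sn/snoRNA that lies inside a host ORF-T, and 3 followed more than 1 sn/snoRNA: SFT1, YMR013W-A, which follows a cluster of 5, and NVJ2. Another 2, RPS14A and PMD1, were also the convergent neighbour of a different sn/snoRNA. A NUT ran over both the sn/snoRNA and the ORF-T for 14, and all but NUP188 of the 45 had an ET in front. ORF-Ts include untranslated regions, and sn/snoRNA annotations are segments whose ends can differ from the mature RNA. For 5 of the sn/snoRNAs in front of these ORF-Ts, those before CTO1, IMO32, REC104, YML057C-A and ECM19, the annotated 3' end lay over 100 bases past the RefSeq one, and the gap measured from the mature end is longer by that much. The row of snR44 instead ends 113 bases short of the RefSeq end.

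Where an sn/snoRNA ends through the NNS pathway, the motifs lie in the stretch behind the mature RNA. In the 200 bases past the RefSeq 3' end (build R64, sacCer3), 43 of the sn/snoRNAs could be read, and 37 of these windows (86.0%) held at least 1 GTAA or GTAG, written as DNA for the Nrd1 motifs, together with at least 1 TCTT, a Nab3 motif. The same was found in 57.9% of windows of equal length past the ends of 5752 ORF-Ts. The 43 windows include those of the 7 sn/snoRNAs inside a host ORF-T and were not split by how each RNA ends. The motifs were searched on the RNA strand only, and GTAA and GTAG can overlap by their outer bases. A match is a description of letters and not of a bound site. The windows below are the 30 bases with the most matches within the 200, shown for the 5 ORF-Ts with the largest called rises, for the 2 largest falls, and for TRS31, which follows the much studied snR13. Capitals mark GTAA, GTAG or TCTT.
snR43 before YCL007C (chrIII:107458-107487, minus strand): ttatgtatacttattttgcttattttTCTT
snR60 before UBX6 (chrX:349088-349117, minus strand): acgaaaactgtattaGTAAtatgcttGTAA
snR47 before YDR042C (chrIV:541556-541585, minus strand): tTCTTgctgatttTCTTtttTCTTatTCTT
snR71 before REC104 (chrVIII:411356-411385, plus strand): tcTCTTgaataatttcaacttttataTCTT
snR68 before FLX1 (chrIX:97322-97351, plus strand): ttcataggaatatgtacaataTCTTgTCTT
snR189 before RPS14A (chrIII:178551-178580, minus strand): tTCTTgttcatacttgttatgtaTCTTCTT
snR45 before ASN1 (chrXVI:821960-821989, plus strand): aGTAGctttttatatgtTCTTaaattGTAG
snR13 before TRS31 (chrIV:1403051-1403080, plus strand): tccccGTAGaaaaTCTTaGTAAtcctTCTT
The windows of snR47 and of snR13 each held 4 matches, and that of snR43 held 1.

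The 8 libraries held between 6904004 and 12666126 counts on annotated transcripts. RRP6 itself had 60, 31, 42 and 16 counts in rrp6Δ, against 1787, 1030, 754 and 660 in WT. Libraries of equal replicate number deviated together (correlation between 0.389 and 0.557). Of the markers of the MATa mating type, STE2 had between 983 and 2304 counts and the alpha-cell gene STE3 between 19 and 47. URA3 and HIS3, which are deleted in whole or in part in BY4741, were at 49 to 103 and at 29 to 83 counts. Of 14 genes of NNS termination and the nuclear exosome, NRD1 was the only one called. For all ORF-Ts the shares called were 2.09% up and 14.3% down. NRD1 had a log2 fold change of 0.70 ± 0.29 (SE, FDR 0.0919, edgeR) and libraries that overlapped.

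Among the 45 tandem ORF-Ts, 6 were called up in rrp6Δ and 6 down. Calls came from edgeR's quasi-likelihood test and needed a 1.5-fold difference, p below 0.05, and an FDR (Benjamini-Hochberg, taken over the 10054 rows of the table) no higher than 0.1. The 6 called up (13.3%) stand beside 2.09% of all ORF-Ts, and the 6 called down (13.3%) beside 14.3%. YCL007C, UBX6, YDR042C, REC104, FLX1 and SFT1 rose, and RPS14A, ASN1, PMD1, ADD37, ERG25 and TMA20 fell. In 6 tandem ORF-Ts every rrp6Δ library was above every WT library (13.3%, against 1.63% of all ORF-Ts), and in 6 every one was below (13.3%, against 13.8%). On the log2 scale the 45 had a median change of -0.31, beside -0.32 for the 5708 other ORF-Ts, and 24 of the 45 were above the median of the others.  With TMM factors computed from ORF-Ts alone the median of all ORF-Ts moved up by 0.30, and the tandem ORF-Ts counted 7 up and 1 down, against 3.81% and 2.66% of all ORF-Ts. The 6 up were then still called, USE1 joined them, and RPS14A was the one left down.

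**Figure D1:**
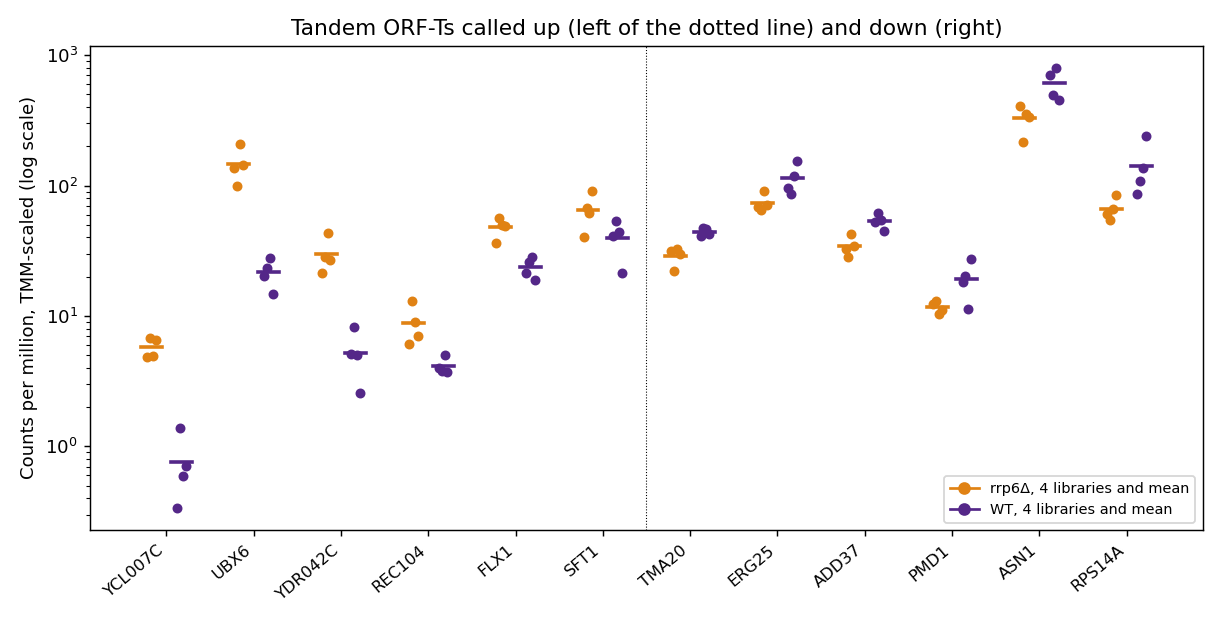
CPM scaled with TMM (log axis) of the 12 tandem ORF-Ts that passed the thresholds, with rrp6Δ left of WT for each; points are the 4 libraries and bars their mean. YCL007C, UBX6, YDR042C, REC104 and FLX1 have all rrp6Δ points above all WT points, while SFT1, PMD1 and ERG25 have points that overlap.

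The largest rise was that of YCL007C, an ORF on chromosome III (106974 to 107366) that the RefSeq annotation used here does not list as a gene. It had 80, 65, 65 and 68 counts in rrp6Δ, against 4, 11, 4 and 5 in WT, which gave a log2 fold change of 2.94 ± 0.41 (SE, FDR 0.000402, edgeR). Its gap to snR43 was 104 bases. The ET of snR43 covered 58.7% of its own length inside the ORF-T and rose by 3.84 ± 0.40 (log2), and NUT0859 ran over both.

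UBX6, which encodes a UBX-domain partner of the Cdc48 ATPase, had 137, 99.8, 208 and 144 CPM (counts scaled to library size with TMM factors) in rrp6Δ, against 20.2, 23.4, 28.0 and 14.8 in WT. The log2 fold change was 2.77 ± 0.27 (SE, FDR 4.8e-05, edgeR), and no library of the one strain came near those of the other. UBX6 lies 275 bases behind snR60, which lies inside the row of YJL047C-A. A cryptic unstable transcript (CUT) of the same strand, CUT689*, shares 328 bases with the 5' end of the UBX6 row and had 2344, 973, 2798 and 1502 counts in rrp6Δ, against 203, 174, 172 and 64 in WT. The UBX6 row itself had 2246, 960, 2754 and 1507 counts in rrp6Δ, against 239, 186, 189 and 104 in WT. The counts of UBX6 and of the CUT were thus nearly the same in rrp6Δ, although the CUT is 363 bases long and the UBX6 row 1576, and the coding sequence begins 243 bases into that row. YJL047C-A, which shares 186 bases with UBX6, did not pass the thresholds (0.69 ± 0.38, FDR 0.189, edgeR), and the ET of snR60, drawn to end before the UBX6 row, rose by 2.53 ± 0.22 (log2).

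YDR042C, a gene of unknown function on chromosome IV (540492 to 541278), had 21.5, 28.6, 43.5 and 26.9 CPM in rrp6Δ, against 5.08, 8.30, 5.03 and 2.57 CPM in WT, with a log2 fold change of 2.51 ± 0.34 (SE, FDR 0.000376, edgeR). Its groups were far apart. The ET of snR47 in front of it reached 76 bases into the row, of which 2 were coding, and did not pass the thresholds (0.75 ± 0.33, FDR 0.109, edgeR). NUT0903 spanned both.

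REC104 is needed in meiosis for the formation of DNA double-strand breaks. It had 6.10, 13.1, 9.06 and 6.99 CPM in rrp6Δ, against 3.98, 3.77, 5.03 and 3.71 CPM in WT, and it rose by 1.09 ± 0.30 (log2, SE, FDR 0.0167, edgeR) with no overlap. It lies 1077 bases behind the annotated end of snR71, which is 229 bases past the RefSeq end, with LIN1 on the opposite strand over the gap. The ET of snR71 reached 366 bases into the REC104 row, 83 of them coding, and rose by 2.79 ± 0.26 (log2). Of the 11 ORF-Ts with a gap over 1000 bases 1, REC104, was called up, beside 2.09% of all ORF-Ts.

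FLX1, which encodes the mitochondrial FAD carrier, had 36.2, 56.2, 49.8 and 48.7 CPM in rrp6Δ, against 21.5, 25.8, 28.4 and 18.8 CPM in WT. It rose by 1.01 ± 0.21 (log2, SE, FDR 0.00340, edgeR). The ET of snR68 holds the whole FLX1 row, and 413 bases of it lie outside. Reads counted only on those bases were 338, 337, 503 and 301 in rrp6Δ, against 70, 51, 51 and 41 in WT, a log2 ratio of mean CPM of 2.25 (two-sided exact permutation test, p = 0.0286, the smallest that 4 against 4 libraries can give). The same count for the other ORF-Ts held whole in an ET gave a log2 ratio of 0.26 for SFT1 (exact permutation test, p = 0.514) and 1.10 for NVJ2 (exact permutation test, p = 0.0571), and all 3 ETs were drawn from these libraries. The FLX1 row begins 174 bases past the start codon, so the sequence counted outside it includes coding sequence.

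SFT1, a SNARE of the Golgi, was the weakest of the 6 and follows the segment SNR87-A by 2 bases and snR87 by 351 bases. It had 40.5, 67.9, 61.1 and 90.1 CPM in rrp6Δ, against 41.3, 53.4, 43.7 and 21.3 CPM in WT, and its log2 fold change was 0.70 ± 0.29 (SE, FDR 0.0927, edgeR). The lowest rrp6Δ library was below 3 of the WT libraries. The call was lost without WT library 1, 3 or 4 or without rrp6Δ library 2, 3 or 4 (FDR between 0.112 and 0.160, edgeR), while the fold change stayed between 0.56 and 0.94. Those fits did not take the replicate number as a block, and with that block and all libraries the FDR of SFT1 was 0.0333 (edgeR). SNR87-A itself, a segment that matched no RefSeq gene by name, rose by 2.23 ± 0.47 (log2). It was the one annotated sn/snoRNA row called up of 51 in front of these ORF-Ts, against 2.5% of all 80. Of the 51, 14 were called down (27.5%), against 25% of the 80. Among these 14 was snR87, which fell by 0.73 (log2, SE 0.28, FDR 0.0709, edgeR). The ET of snR87, which holds SFT1 and also the whole row of SNR87-A, had a log2 fold change of 0.38 ± 0.31 and did not pass the thresholds.

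USE1, a SNARE of transport from Golgi to endoplasmic reticulum, had 68.6, 76.2, 69.1 and 68.8 CPM in rrp6Δ, against 55.3, 59.8, 47.1 and 46.0 CPM in WT. All rrp6Δ libraries were above all WT libraries, but its log2 fold change of 0.44 ± 0.17 (SE, FDR 0.0681, edgeR) was below the 1.5-fold needed. The ET of snR82 covered 54 bases of its row, 5 of them coding, and rose by 2.14 ± 0.23 (log2).

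In WT the ORF-Ts called up lay mostly low in the order of levels per kilobase of row. Of 45, YCL007C was at position 43 with 1.93 ± 1.14 CPM per kb (SD, n = 4), REC104 at 38, YDR042C at 36, UBX6 at 31, FLX1 at 22 and SFT1 at 13. In rrp6Δ UBX6 stood at position 8 with 93.4 ± 28.5 CPM per kb (SD, n = 4), against 13.7 ± 3.50 CPM per kb in WT. The span of the list in WT was wide, from TOS2 at 1.31 CPM per kb to ASN1 at 326 and YMR013W-A at 8738 CPM per kb. The row of YMR013W-A holds the gene of snR73, which has no row of its own here, and that of RPL7A holds snR39, so their counts are largely or partly those of an snoRNA.

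RPS14A, which encodes a protein of the small ribosomal subunit and has a near-identical copy (RPS14B) with which reads can be shared, had 60.2, 54.7, 66.5 and 84.6 CPM in rrp6Δ, against 86.0, 108, 136 and 240 CPM in WT. It fell by 1.10 on the log2 scale (SE 0.29, FDR 0.0144, edgeR), the largest called fall of the list, and its groups did not overlap. Without WT library 4, its highest, it fell by 0.65 (FDR 0.0492, edgeR). The study reported lower mRNA levels in rrp6Δ for most ribosomal protein genes, wherever they lie. The gap to snR189 is 338 bases, and the ET there rose by 2.24 ± 0.33 (log2). RPS14A is also the convergent neighbour of snR65, whose ET covers 85 bases of its row on the opposite strand.

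ASN1, an asparagine synthetase with a close paralog (ASN2), had 408, 217, 354 and 333 CPM in rrp6Δ, against 699, 498, 798 and 453 CPM in WT, and it fell by 0.90 (log2, SE 0.26, FDR 0.0219, edgeR) with no overlap. The ET of snR45, drawn to end before ASN1, had 104, 159, 187 and 125 CPM in rrp6Δ, against 3.81, 11.6, 13.3 and 3.00 CPM in WT, a rise of 4.19 ± 0.45 (log2). The ET and the ORF-T behind it thus moved in opposite directions.

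PMD1 (-0.72 ± 0.26), ADD37 (-0.63 ± 0.19), which acts in degradation at the endoplasmic reticulum, the sterol oxidase gene ERG25 (-0.62 ± 0.22) and TMA20 (-0.61 ± 0.18), whose product binds ribosomes, fell by less (log2 fold changes ± SE). PMD1 is also the convergent neighbour of snR4, whose ET runs over 1102 bases of its row on the opposite strand. The libraries of the strains overlapped for PMD1 and ERG25. In the fit without the replicate number as a block, these 4 calls each depended on single libraries. With that block their FDRs were 0.0109 for PMD1, 0.0037 for ADD37, 0.0058 for ERG25 and 0.0039 for TMA20 (edgeR). With TMM factors from ORF-Ts alone they were not called (FDR between 0.258 and 0.365, edgeR). The library dependence below is for the fit without the block. PMD1 was lost without WT library 1 or 4 or rrp6Δ library 1, 3 or 4, ERG25 without WT library 4 or rrp6Δ library 1, 2 or 4, TMA20 without WT library 2 or 4 or rrp6Δ library 2 or 4, and ADD37 without WT library 2 or rrp6Δ library 1, 2 or 4. NUP188, a nucleoporin 91 bases behind snR85, and VPS8, a subunit of the vacuolar tethering complex CORVET, had all rrp6Δ libraries below WT without passing the thresholds, at -0.27 ± 0.16 and -0.50 ± 0.22 (log2). With the replicate number as a block, DFR1, TOS2 and MCT1 were also called down, which made 9 (FDR between 0.0456 and 0.0691, edgeR). The share of all ORF-Ts called down with the block is not given here, so the 9 are not read as an excess. These 3 had between 4 and 51 counts per library and were named after their values were seen. WT library 4 stood above the other WT libraries in each, and without it the log2 fold changes in the fit without the block were -0.52 for DFR1, -0.53 for TOS2 and -0.29 for MCT1, against -0.86, -1.01 and -1.14 with it.

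**Figure D2:**
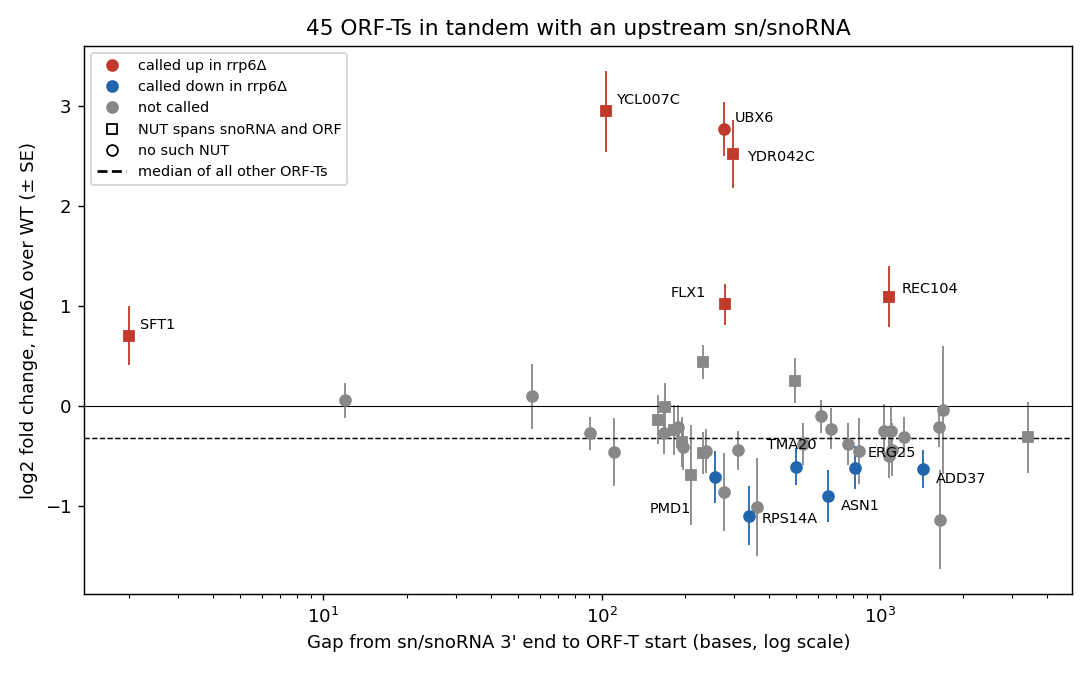
Log2 fold change of each of the 45 tandem ORF-Ts (rrp6Δ over WT, ± SE) against its gap to the sn/snoRNA in bases (log axis); squares have a NUT over both transcripts, circles do not, and the dashed line is the median of all other ORF-Ts. Of the 6 called up, 5 lie at gaps of 298 bases or less and 5 are squares, and the 6 called down are all circles. SFT1 is drawn at its gap from SNR87-A, while its gap from snR87 is 351 bases.

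The question put to gap length was whether ORF-Ts closer to the sn/snoRNA changed more. Among the 23 ORF-Ts with a gap of up to the median of 309 bases, 5 were called up and 1 down, with a median log2 fold change of -0.24. Among the 22 with a longer gap, 1 was called up and 5 down, with a median of -0.38. SFT1 counts as short by its gap of 2 bases from SNR87-A, which lies inside the ET of snR87. From snR87 its gap is 351 bases, over the split at 309. Over all ORF-Ts 2.09% were called up and 14.3% down. With TMM factors from ORF-Ts alone the counts were 6 up and 0 down for short and 1 up and 1 down for long gaps. Over all ORF-Ts these factors gave 3.81% up and 2.66% down. With them, at an unadjusted p under 0.05 and the same fold, the short gaps again had 0 down. With the split at 500 bases the counts were 5 up and 2 down of 26, against 1 up and 4 down of 19. Across the 45 the log2 fold change and the log10 of the gap had Spearman's rho of -0.28 and Pearson's r of -0.25. These are descriptions over transcripts measured in the same 8 libraries. Of the 5 ORF-Ts with the shortest gaps, SFT1 and YCL007C rose, while CTO1 (12 bases), YMR013W-A (56 bases) and NUP188 had log2 fold changes of 0.06 ± 0.17, 0.09 ± 0.32 and -0.27 ± 0.16 and were not called. At the far end, YML057C-A (1689 bases) had between 1 and 18 counts per library and ECM19 (3407 bases) had 2.62 ± 0.520 CPM in rrp6Δ and 3.28 ± 1.53 CPM in WT (SD, n = 4), and neither was called.

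The NUTs come from another experiment and were not used to choose the list. Of the 14 ORF-Ts under a NUT that also covers the sn/snoRNA, 5 were called up and 0 down, with a median log2 fold change of 0.12. Over all ORF-Ts 2.09% were called up and 14.3% down, and 0 of 14 is not far from the latter share. By unadjusted p under 0.05 and fold the edgeR test likewise gave 0 down among these 14, and so did DESeq2. Of the other 31, UBX6 was the one called up and 6 were called down, with a median of -0.41. With TMM factors from ORF-Ts alone the counts were 6 up and 0 down under a NUT and 1 up and 1 down for the others. Over all ORF-Ts that scaling gave 3.81% up and 2.66% down. TRS31, YTM1, HEM4, UBA1, GAL11, SEN2, USE1, RGT1 and ECM19 were under such a NUT and were not called. The difference between these groups was not tested.

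TRS31, a subunit of the TRAPP tethering complexes, lies 182 bases behind snR13 under NUT0167. It had 33.4, 15.7, 32.1 and 25.9 CPM in rrp6Δ, against 39.9, 24.9, 31.4 and 30.7 CPM in WT, and its log2 fold change was -0.24 ± 0.25 (SE, FDR 0.472, edgeR). The ET of snR13, drawn to end before TRS31, had 47.2, 110, 93.0 and 72.3 CPM in rrp6Δ, against 5.67, 18.4, 12.4 and 4.85 CPM in WT, a rise of 2.97 ± 0.41 (log2). The libraries of the strains did not overlap for the ET and overlapped for TRS31.

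Of the 44 ETs in front of tandem ORF-Ts 26 were called up (59.1%), against 62.8% of all 78 ETs, and 1, behind snR44, was called down, against 1.28%. That ET row holds 113 bases of mature snR44, whose own row fell by 2.29 (log2). Because the ETs were drawn from these libraries, their direction is no independent result. Of the 26 ORF-Ts behind an ET that rose, 4 were called up, 5 were called down and 17 were not called, and 2 of the 6 called up stood behind an ET that was not. Over all ORF-Ts 2.09% were called up and 14.3% down, and the 5 falls of 26 are near the latter share. In 35 of the 44 the drawn ET had up to 10% of its length inside the ORF-T row, and there the ETs had a median log2 fold change of 1.43 and the ORF-Ts one of -0.38. The ET and ORF-T changes had Spearman's rho of 0.10 and Pearson's r of 0.06 over these 35. Because the ETs were drawn from these reads, this split is not independent of the change, and its values are a description. The largest 2 ET rises, behind snR35 (4.30 ± 0.41) and snR45, stood before MCT1 (-1.14 ± 0.50, not called) and ASN1. The other 9, whose ET reaches further into the row, include 5 of the ORF-Ts called up, and these are the same 5 that lie under a NUT. The reads in the shared stretch are counted on both rows, and their part in these 5 calls was not tested.

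**Figure D3:**
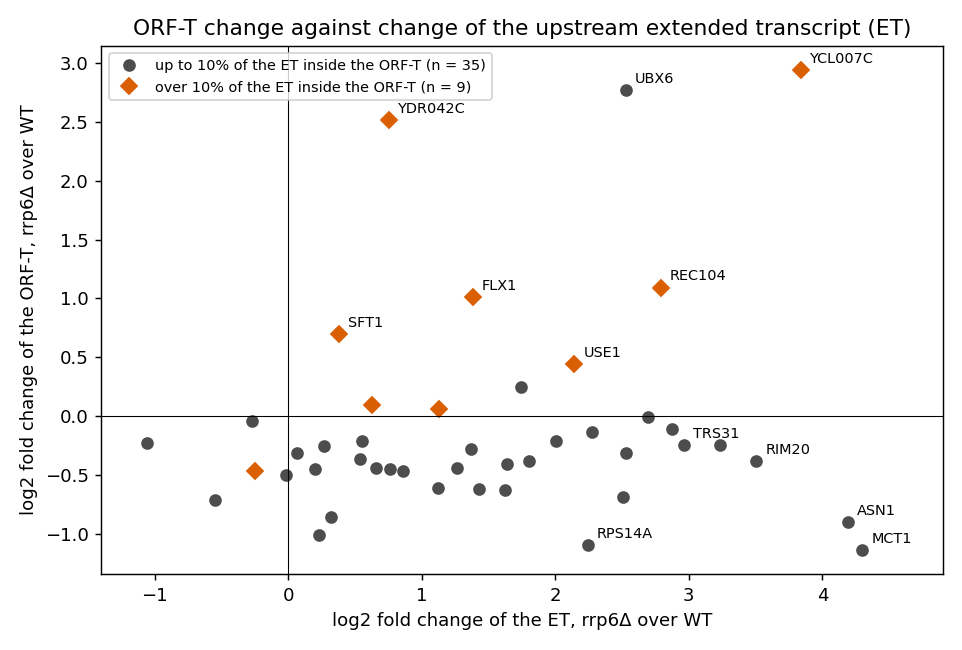
Log2 fold change (rrp6Δ over WT) of each ORF-T against that of the ET in front of it, for the 44 with an ET; diamonds have over 10% of the ET inside the ORF-T, circles up to 10%. The circles spread to the right up to 4.30 while all but 2 stay below 0 on the vertical axis, and 5 of the 9 diamonds are ORF-Ts called up.

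Per kilobase, the ET was denser than the ORF-T behind it in 31 of these 35 in rrp6Δ and in 18 of 35 in WT. The median ratio of ET density to ORF-T density was 4.07 in rrp6Δ and 1.02 in WT, and it was higher in rrp6Δ in 32 of 35. Without the 7 behind an sn/snoRNA that lies inside a host ORF-T the median ratios were 3.67 in rrp6Δ and 0.95 in WT over 28. Because the ETs were drawn from these libraries, a higher ratio in rrp6Δ is no independent result. Some of the ETs, such as those of snR44, snR52 and snR54, also hold part of the mature RNA or of the annotated sn/snoRNA.

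**Figure D4:**
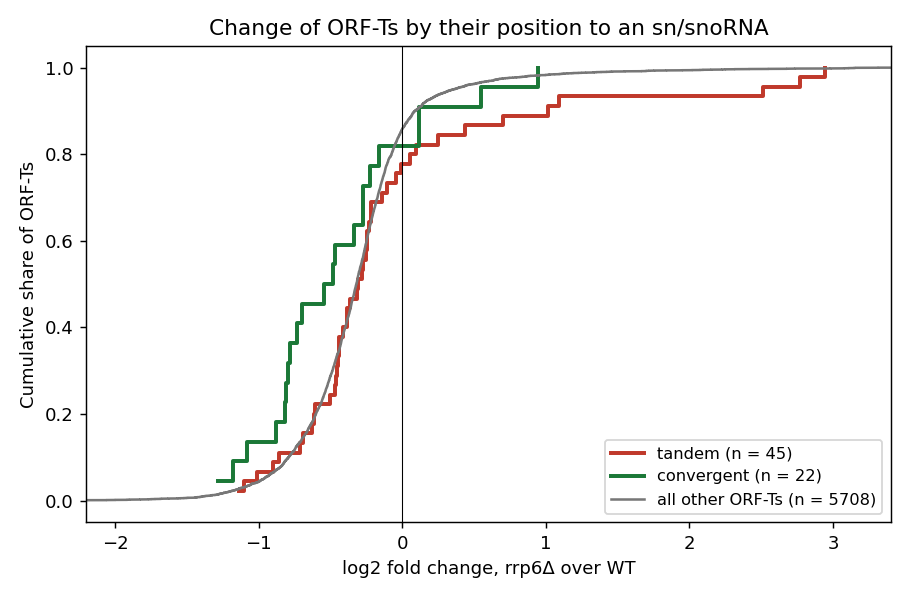
Cumulative share of ORF-Ts by log2 fold change (rrp6Δ over WT) for the 45 tandem ORF-Ts, the 22 that are convergent neighbours only, and the 5708 ORF-Ts not in tandem (a set that holds the 22). The tandem curve runs with the others below 0 and lies to the right of them above 0, where the 6 called up are, while the convergent curve lies to the left over most of its range, with a median of -0.51.

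The nearest comparison is the ORF-T past an sn/snoRNA on the opposite strand. Of the 22 that are not also in tandem, 0 were called up, near the 2.09% of all ORF-Ts, and 8 down (36.4%, against 14.3%). Their median log2 fold change was -0.51, against -0.31 for the tandem 45. At an unadjusted p under 0.05 and the same fold edgeR's test also gave 0 up, and DESeq2 gave 0 up at the thresholds. With TMM factors from ORF-Ts alone 2 of the 22 were called up and 2 down, against 3.81% and 2.66% of all ORF-Ts. RPS14A and PMD1, both called down, are convergent neighbours too but are counted only among the tandem ones. The difference between the tandem and the convergent neighbours was not tested.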

How the data were processed

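Total RNA of 4 rrp6Δ and 4 WT cultures (biological replicates in the series' description) was depleted of rRNA and sequenced by the authors on the SOLiD platform as strand-specific single reads, aligned with bfast to sacCer3. The deposited table gives raw counts per annotated transcript made by the authors with NGSUtils; which of their mappings, with or without rRNA and tRNA reads, is behind it is not given in the sources used here. A read over a boundary counts on each row it touches. The columns of the authors' own comparison (log2 fold changes and p-values) were not used, nor were their values compared. The table's normalized signal per library, made by the authors, was not used either.

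Neighbours were assigned from the coordinates in the table, and RefSeq R64 gave coding sequence and the printed sequences. Counts were tested with edgeR 4.0.16 (quasi-likelihood, TMM over all 10054 rows, no filter) in R 4.3.3, with Benjamini-Hochberg adjustment over all rows. SE is the log2 fold change divided by the square root of F. The pipeline was tested on simulated data with 50 changed rows at each fold. It called 5 of 50 at 1.5-fold, 17 at 2-fold, 42 at 3-fold and 48 at 4-fold, with 12 false calls among the unchanged rows. A transcript that was not called can therefore still have changed. Depth was 6904004 to 12666126 counts per library, and 41 of the 45 ORF-Ts had at least 10 counts in every library. Libraries differed beyond sampling noise, so none was a duplicate. Same-numbered libraries deviated together (correlation 0.389 to 0.557 over 4 pairs, against -0.377 to 0.002 for other pairs), and the replicate number was taken as a block in an alternative fit. Deviations were taken from the mean of each group, so positive same-numbered pairs push the other pairs toward negative values. The range of the other pairs is thus no separate evidence. The other alternatives were DESeq2 1.42.0, edgeR's exact test, other scalings, a filter, other thresholds, other neighbour rules and each library left out. Subtracting sn/snoRNA counts from ORF-Ts that hold them, and the block with ORF-T scaling, were added after seeing the data. The ORF-Ts and gene lists were chosen with earlier results of these data known. Genes named were those called or without overlap between strains, the nearest and farthest, and TRS31. LEU2, MET15 and the alpha-factor genes were not analysed here.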

Additional observations from a re-analysis of the deposited data

Results flagged for a closer look

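In 9 of 90 groups of 4 libraries 1 library stood apart from the other 3 by Dixon's test, where chance gives about 1 in 20. Of these, 7 were WT library 4 at the high end. GAL11, a Mediator subunit, had 37.1 CPM there, against 6.35 to 8.0 CPM in the other WT libraries. CAF40, a subunit of the CCR4-NOT complex, had 27.1 CPM, against 9.62 to 11.6. RIM20 had 39.5 CPM, against 26.2 to 27.6, and MCT1 7.28 CPM, against 1.76 to 1.95. ECM19 had 5.57 CPM, against 2.37 to 2.67, TOS2 4.71 CPM, against 1.89 to 2.07, and DFR1 3.57 CPM, against 1.78 to 2.03. Another was WT library 1 for YML057C-A, with 1.35 CPM, against 0.296 to 0.428 in the other WT libraries. The last was rrp6Δ library 2 for USE1, with 76.2 CPM, against 68.6 to 69.1 in the other rrp6Δ libraries.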

How the results depend on the processing

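YCL007C, UBX6, YDR042C, REC104 and FLX1 stayed called up in every alternative that tested them, and YCL007C, with WT counts under 10 in most libraries, left the table under the minimum of 10 counts in every library. The calls of falls depended on scaling. With that minimum, 0 of the tandem ORF-Ts still tested were called down, their median log2 fold change was -0.092 (-0.024 for short and -0.16 for long gaps), the other ORF-Ts counted 67 up and 109 down with a median of -0.11, the convergent ones 1 up and 3 down, and the rho of ET against ORF-T change was 0.29. With TMM factors from ORF-Ts only, 1 tandem ORF-T was down, the median was -0.0069 (short 0.058, long -0.079), the others counted 212 up and 152 down with a median of -0.017, the convergent ones 2 up and 2 down with a median of -0.20, and the ET median was 1.69. With library totals in place of TMM, 1 was down, the median was 0.045 (short 0.11, long -0.030), the others counted 215 up and 84 down with a median of 0.036, the convergent ones 2 up and 2 down with a median of -0.14, and the ET median was 1.76. With the replicate block and ORF-T scaling together, chosen after seeing the data, 2 were down, the median was 0.015 (short 0.033, long -0.055), the others counted 299 up and 277 down with a median of -0.012, the convergent ones 2 up and 2 down with a median of -0.23, and the ET median was 1.68. The replicate block alone gave 6 tandem ORF-Ts up and 9 down. At an FDR of 0.05, 506 others and 5 convergent ORF-Ts were down. By fold alone 10 tandem ORF-Ts were down, and 182 others and 1 convergent one were up. Over the alternatives that kept all libraries, between 84 and 1210 other ORF-Ts were called down. The share that belongs to the block or to fold alone is not given here. No excess of tandem falls is therefore read from the 9 or the 10. Leaving out ORF-Ts that overlap an ET, NUT or sn/snoRNA left 25, of which 1, UBX6, was up. With the gap taken from the first sn/snoRNA of a cluster, rho was -0.20.

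With 1 library left out at a time, the ranges were 5 to 6 tandem ORF-Ts up and 2 to 7 down (2 without rrp6Δ library 4, and 3 without rrp6Δ library 1, rrp6Δ library 2 or WT library 4), medians of -0.35 to -0.18 (short gaps -0.30 to -0.077, long -0.41 to -0.27), a rho with the gap of -0.32 to -0.25, 86 to 138 others up and 386 to 915 down with medians of -0.34 to -0.20, 0 to 1 convergent ORF-Ts up and 5 to 8 down with medians of -0.62 to -0.41, 25 to 31 ETs up with medians of 1.25 to 1.56, a rho of ET against ORF-T change of -0.023 to 0.21, and a density ratio of 3.78 to 4.97. The cause of these shifts was not tested. Low counts limit YCL007C, YML057C-A, TOS2 and DFR1, each of which had a library under 10 counts.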
